A study of Mus musculus with 3 samples.

Results

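Arid5b is the mouse gene of a DNA-binding protein with an AT-rich interaction domain, and its transcript is described here exon by exon in RNA of ovulated oocytes. The gene was selected on its measured depth, since its locus (chr10:67555270-67741490 in mm9, minus strand) held many alignments in litters 1 and 2 and almost none in litter 3. It is 1 gene whose region fills 187 of the 2725738 windows of 1 kb into which the genome of the files falls. The data are 3 sequencing libraries of 1 group, 1 per litter, with 35183199, 31787887 and 32028802 alignments in litters 1, 2 and 3. All the females were of mixed strain background, homozygous for the floxed allele LSD1 FL/FL and negative for ZP3::Cre, so that the histone demethylase LSD1 was not deleted, and the labels call their oocytes wild type. The females were superovulated, and eggs were taken by E0.5 and lysed. Their RNA was amplified by SPIA with a Nugen Ovation kit and made into Illumina libraries. The labels give neither the age of the females nor the number of oocytes or females behind a litter, and no second genotype or treatment is part of the series. In such pooled RNA, fewer cells of a type and less RNA per cell cannot be told apart.

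Proteins with an AT-rich interaction domain, the ARID family, bind DNA and mostly work as parts of chromatin regulators. The protein Arid5b is known to recruit the histone demethylase Phf2, which removes methyl groups from histone H3, and has been studied for its part in the development of fat cells and cartilage. A fully grown oocyte makes little new RNA and lives on messenger RNA stored during growth. The reference annotation (GENCODE M21) holds 4 transcripts of the gene. The long coding form, Arid5b-204, has 10 exons, 7581 bases and a coding part of 3564 bases. The short coding form, Arid5b-203, begins with an exon of its own and joins the long form at exon 5, so exons 1 to 4 belong to the long form and not to the short one.

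Before the values, 3 exons and a stretch of the last exon are shown, because they carry the pattern reported below. Exons 2 and 3 follow each other in the long form and are alike in length and GC content, yet exon 2 had no depth in any litter and exon 3 had the highest level per base in litters 1 and 2. Exon 7 is shorter than 1 alignment. The stretch of the last exon holds the highest exonic depth of litter 3. All are coding sequence of Arid5b-204 from GENCODE M21 (GRCm38), written 5′ to 3′ on the minus strand, and the positions are those found in the mm9 tracks. Capitals in exon 3 mark the 72 bases of the alignment start used most often in litters 1 and 2. Capitals in the last exon mark its bases of highest depth in litter 3.
Exon 2 (chr10:67740680-67740934): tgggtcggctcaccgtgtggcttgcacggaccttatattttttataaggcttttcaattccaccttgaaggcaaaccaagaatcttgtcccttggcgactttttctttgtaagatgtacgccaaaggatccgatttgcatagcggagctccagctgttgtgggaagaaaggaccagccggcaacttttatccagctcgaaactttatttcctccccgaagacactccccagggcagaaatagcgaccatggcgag
Exon 3 (chr10:67705754-67705979): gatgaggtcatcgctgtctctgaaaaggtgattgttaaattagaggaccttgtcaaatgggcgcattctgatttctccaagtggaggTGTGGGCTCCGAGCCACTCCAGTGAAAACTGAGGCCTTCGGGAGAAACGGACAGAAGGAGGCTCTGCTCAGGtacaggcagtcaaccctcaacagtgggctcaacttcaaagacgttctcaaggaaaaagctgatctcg
Exon 7 (chr10:67589449-67589501): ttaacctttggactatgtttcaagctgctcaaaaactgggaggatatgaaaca
Last exon, bases 149 to 348 (chr10:67561072-67561271): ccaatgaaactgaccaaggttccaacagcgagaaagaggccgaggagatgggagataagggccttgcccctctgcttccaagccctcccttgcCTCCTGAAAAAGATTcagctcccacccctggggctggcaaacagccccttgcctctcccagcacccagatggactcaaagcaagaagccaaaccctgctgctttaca

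The place of the gene was taken from the coverage, because the annotation is built on GRCm38 and the files on mm9. Only the lengths and spacing of the annotated exons were used, and their pattern was slid over the depth of the 3 litters in single bases, within 1 Mb on each side of the region. At the best place of Arid5b-203 the mean of log2(depth + 1) was higher in exons than in introns by 5.93, against 3.73 at the next best place over 1 kb away. For Arid5b-204, the model whose exons are described here, the best place gave 5.20 against 3.60, 1 base from the former, a ratio of 1.45 that misses the limit of 1.5 set for a gene to count as placed. In the wider search of 5 Mb used for other genes, another place scored higher for Arid5b-204, with 5.32 against 5.20. With every exon weighing the same, a score added after the first values were seen, Arid5b-204 gave 5.14 at the same place and 1.38 at the next, or 1.95 in the wider search. The place of Arid5b-204 thus rests on that score and on the match of Arid5b-203. Depth also mostly ended where the exons end: of 12 borders of inner exons with depth, 10 had their covered block end within 10 bases of the border. The others were both borders of exon 3, whose covered block ran 82 bases past its low end and 107 bases past its high end in mm9. Alignments reaching at least 5 bases over an exon border numbered 61 at this place, the lowest number within 20 bases of it, and had a median of 2438 at shifts of 21 to 100 bases. No exon of another annotated gene lay inside the span of Arid5b on either strand, which matters because the tracks hold no strand.

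Arid5b messenger RNA was plentiful in litters 1 and 2 and nearly missing from litter 3. Over the 10 exons, litter 1 had 9340 alignments with their midpoint in an exon, litter 2 had 9708 and litter 3 had 42. Litter by litter, the exonic level in CPM, alignments in exons for every 1000000 in the library, was 265, 305 and 1.31, with exact 95% Poisson intervals of 260 to 271, 299 to 312 and 0.945 to 1.77. Per kilobase of exon (RPKM) this was 35.0, 40.3 and 0.173. Litters 1 and 2 lay close together, the second being 1.15 times the first, and litter 3 lay far below both. The mean of litters 1 and 2 was 218-fold above litter 3 (161 to 302 from the counting error of litter 3). Over the exons of the short form Arid5b-203, the model first planned, it was 115-fold above (84.2 to 160). The mean of all 3 litters over Arid5b-204 was 191 ± 165 CPM (SD, n = 3). The locus was chosen on this contrast, so the difference is a description and was not tested. Poisson intervals cover counting error only and leave out amplification and handling of the litter, and each litter is a single library.

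**Figure D1:**
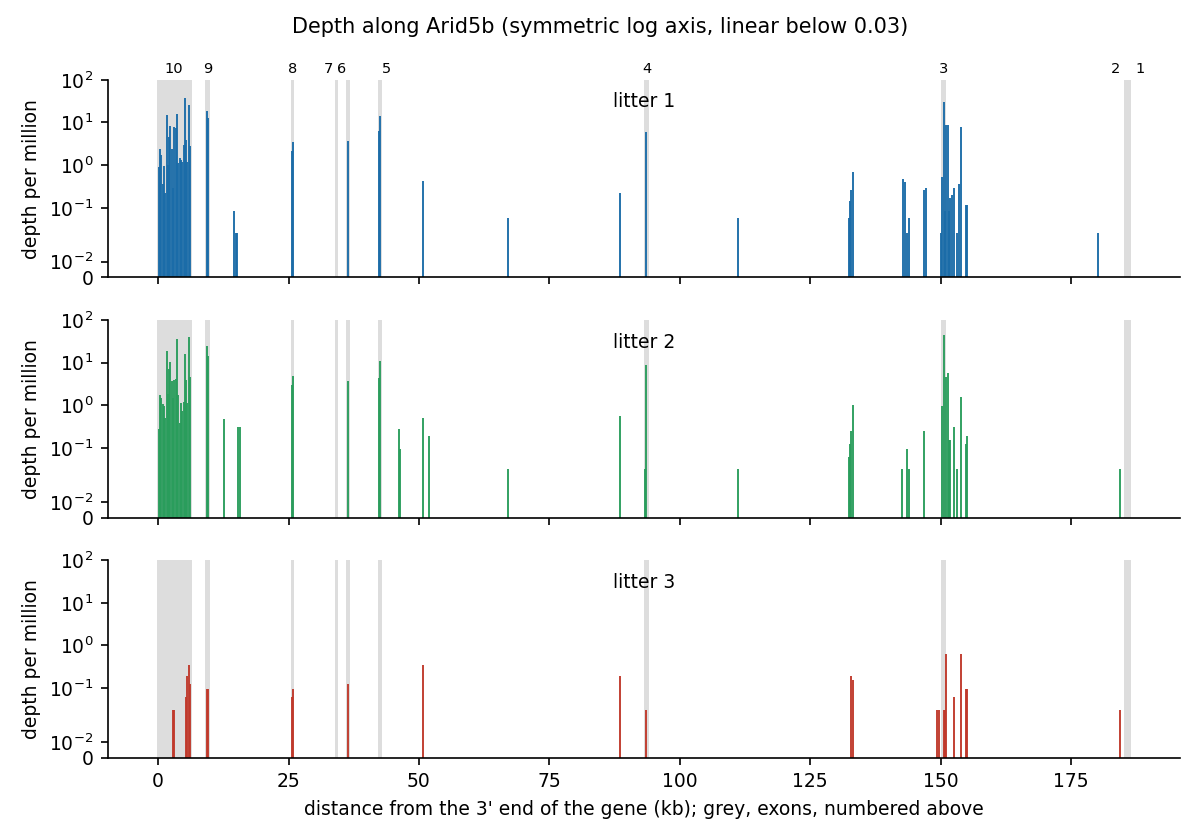
Highest depth, scaled like CPM, in each 250-base step along Arid5b (y axis, symmetric log, linear below 0.03), against distance from the 3′ end of the gene in kb, with 1 panel per litter and exons in grey. Exons 3, 4, 5, 6, 8, 9 and 10 stand up in litters 1 and 2, exons 1, 2 and 7 are empty in all panels, and litter 3 shows a few low bars, part of them outside exons.

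The 5′ end of the long form was the part with the sharpest contrasts between exons. Exon 1, with the start of the coding part, had 0 alignments in all litters, but its 51 bases cannot hold a whole alignment of 72 bases, which Bowtie placed without gaps in these tracks. Exon 2, of 255 bases and room for 184 start positions, also had 0 alignments in litters 1, 2 and 3, which allows up to 3 in each. Exon 3, of 226 bases, held 1152, 1526 and 0 alignments in litters 1, 2 and 3. That is 145, 212 and 0 RPKM, the highest level of the 10 exons in litters 1 and 2. With litter 3 set at the 3 alignments that a count of 0 allows in that library, exon 3 was at least 431-fold lower there than in the mean of the other litters. The GC content was 49.0% in exon 2 and 50.4% in exon 3. The start position most used in exon 3, marked in the sequence above, was hit 91 times in litter 1, 101 times in litter 2 and 0 times in litter 3.

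Exon 4, the last exon that the long coding form does not share with the short one, held 284, 370 and 1 alignments in litters 1, 2 and 3, or 34.9, 50.4 and 0.135 RPKM. Together, exons 1 to 4 took 15.4% of exonic alignments in litter 1 (95% Wilson interval 14.7 to 16.1) and 19.5% in litter 2 (18.8 to 20.3). The first exon of Arid5b-203, with 141 bases, had 0 alignments in every litter. Where the transcript starts in these oocytes was not tested. An exon of 136 bases found in Arid5b-201, a transcript annotated as subject to nonsense-mediated decay, held 0, 9 and 0 alignments.

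The exons that both coding forms share varied more among themselves than between litters 1 and 2. Exon 5, of 113 bases, held 502, 352 and 0 alignments, or 126, 98.0 and 0 RPKM, and was at least 135-fold lower in litter 3 on the same limit. Exon 6 held 173, 174 and 4 alignments (24.0, 26.7 and 0.609 RPKM). Exon 7 had 0 alignments in all litters and, with 53 bases, is like exon 1 too short for a whole alignment. Exon 8, where 27 start positions fit, held 121, 153 and 3 alignments (35.1, 49.1 and 0.956 RPKM). Exon 9 held 737, 864 and 3 (105, 137 and 0.471 RPKM). In litters 1 and 2 the level thus ran from 24.0 to 126 and from 26.7 to 137 RPKM over the shared exons with depth. Their ratio of litter 2 to litter 1 ran from 0.776 in exon 5 to 1.40 in exon 8. Over all 7 exons with depth, exon 3 of the long form was highest in level, at 145 and 212 RPKM, and in ratio, at 1.47. Exon 5 was the only 1 of the 7 with less in litter 2 than in litter 1. All 7 exons had alignments in litters 1 and 2, and 5 of them in litter 3, where only exons 6 and 10 had more than 3.

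**Figure D2:**
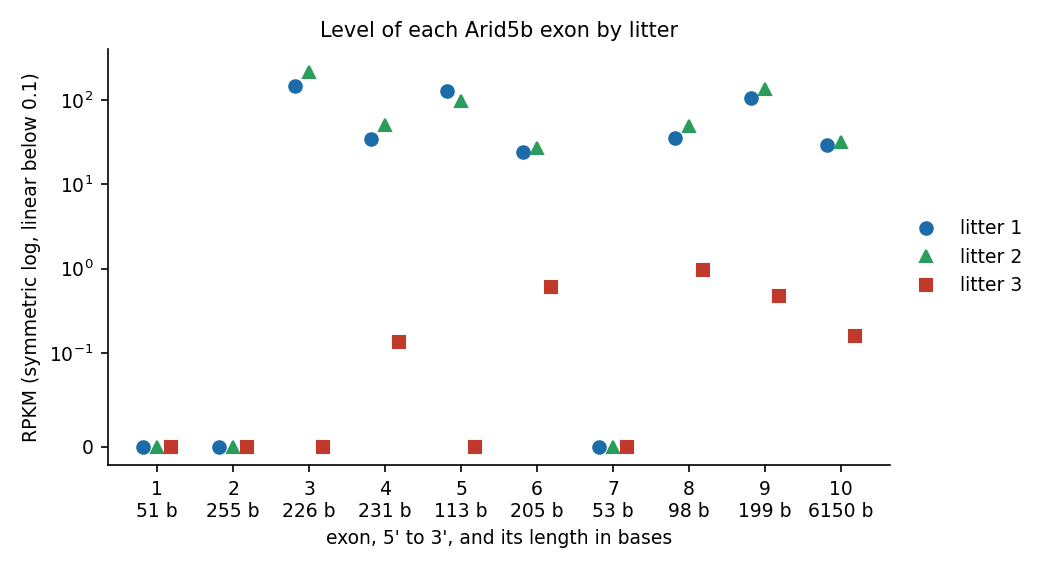
RPKM of each exon of Arid5b-204 (y axis, symmetric log, linear below 0.1) by exon from 5′ to 3′ with its length in bases, 1 point per litter. Litters 1 and 2 lie near each other between 24.0 and 212 RPKM in the 7 exons with depth, and litter 3 lies at or below 0.956 RPKM in all 10.

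The last exon, which holds most of the coding part and the whole 3′ UTR, carried most of the alignments. It took 6371, 6269 and 31 alignments in the 3 litters, or 68.2% (67.3 to 69.1), 64.6% (63.6 to 65.5) and 73.8% (58.9 to 84.7) of the exonic alignments. Per base it was not high, at 29.4, 32.1 and 0.157 RPKM. Its coding part of 2163 bases stood at 49.0, 40.7 and 0.433 RPKM and its 3′ UTR of 3987 bases at 18.8, 27.4 and 0.00783 RPKM. Litter 1 thus had more in the coding part and litter 2 more in the UTR. As shares of exonic alignments the UTR took 28.3% (27.4 to 29.2) in litter 1, 35.8% (34.8 to 36.7) in litter 2 and 2.38% (0.422 to 12.3) in litter 3. These intervals take alignments as independent and leave out amplification, and each litter is a single library. Whether litters 1 and 2 differ in this share was not tested.

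Litters 1 and 2 both filled the last exon unevenly. In bins of 250 bases, 25 of 25 bins held alignments in litter 1 and 24 in litter 2. The 5 fullest bins held 64.1% and 64.9% of the exon's alignments, and 4 of the 5 were the same bins in both litters. The fullest bin of litter 1 lay at bases 1001 to 1250 of the exon, with 1570 alignments against 580 in litter 2, and that of litter 2 at bases 2501 to 2750, with 1230 against 584 in litter 1. The covered block of the summed litters started 28 bases inside the annotated 3′ end, but this rests on a single alignment of litter 1. Bases 6001 to 6150 of the exon held 1, 0 and 0 alignments in litters 1, 2 and 3, and bases 5751 to 6000 held 64, 44 and 0.

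In litter 3 the few alignments of the last exon lay at its 5′ end. Its first 750 bases held 30 of the 31 alignments, and bases 3001 to 3250 held the other 1. In litters 1 and 2 the same 750 bases held 20.4% and 26.6% of the exon's alignments, against 96.8% in litter 3. At the 200 bases printed above, the highest depth was 11 in litter 3, 905 in litter 1 and 1274 in litter 2. In litter 3 the gene was left with 10 alignments in exons 5 to 9, 1 in exons 1 to 4, 30 in the coding part of the last exon and 1 in its UTR. The mean of litters 1 and 2 was 104-fold above litter 3 in the coding part of the last exon (72.5 to 153), 148-fold in exons 5 to 9 (80.2 to 308), 1609-fold in exons 1 to 4 (289 to 63545) and 2951-fold in the UTR (530 to 116573), where the last 2 rest on 1 alignment each in litter 3.

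**Figure D3:**
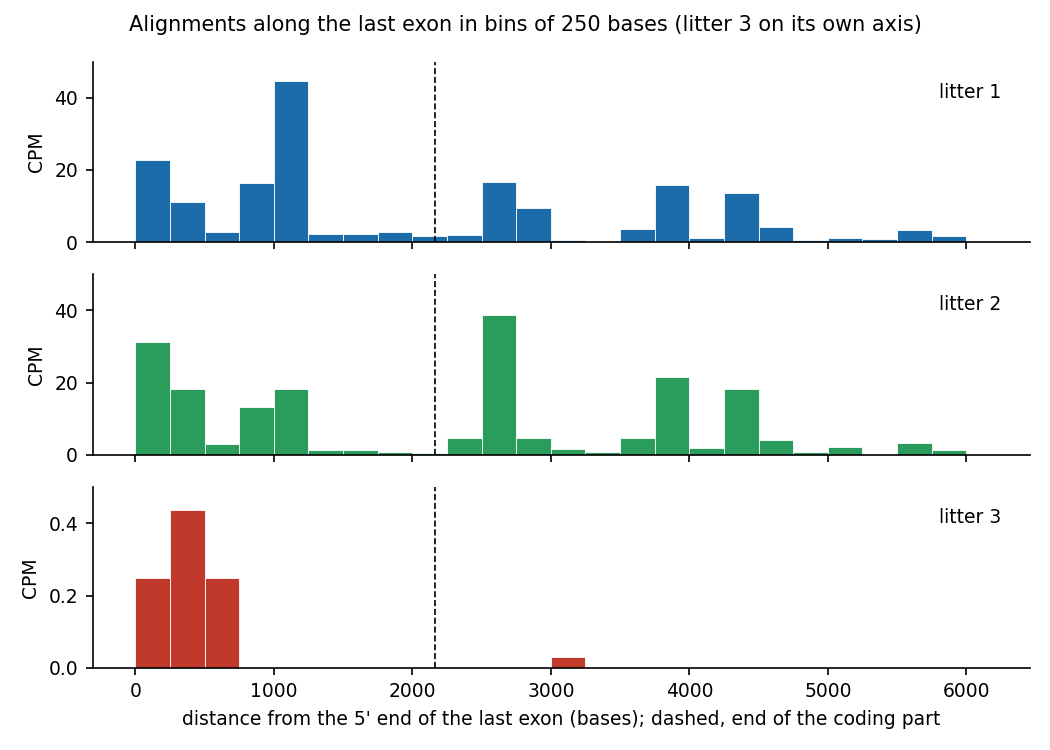
CPM (y axis) in bins of 250 bases along the last exon from its 5′ end, 1 panel per litter, with litter 3 on an axis 100 times finer and the end of the coding part dashed. Litters 1 and 2 peak in mostly the same bins, and litter 3 has 3 bins at the 5′ end and 1 alignment further on.

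Single start positions were less repeated in litter 3, where the few alignments leave little room for repeats, so nothing further is read from this. Exonic alignments began at 2052, 1963 and 37 positions in litters 1, 2 and 3, or 4.55, 4.95 and 1.14 alignments per position. Of the 37 positions of litter 3, 28 were also used in litter 1 or 2, which between them used 36.0% of the exonic bases. That share is over all exons, empty ones among them. In litter 3, 30 alignments lay in the first 750 bases of the last exon, so no excess of shared positions is read from it. With each position counted once, the exonic level of litter 3 divided by the mean of the other litters was 0.0188, against 0.00459 with every alignment counted.

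Introns were far less depleted in litter 3 than exons. Intron bases outside any annotated exon, 176161 in all, held 1101, 461 and 80 alignments in the 3 litters, or 31.3, 14.5 and 2.50 CPM. The mean of litters 1 and 2 was 9.17-fold above litter 3 there (7.37 to 11.6), against 218-fold in exons. Introns took 10.5% (9.97 to 11.1), 4.53% (4.14 to 4.95) and 65.6% (56.8 to 73.4) of the alignments in annotated exons and introns of the gene. Per base, intron density was 0.507%, 0.204% and 8.20% of exon density in litters 1, 2 and 3. Intron and exon counts of litter 3 are both small, and whether intron alignments come from unspliced RNA, other transcripts or DNA was not tested.

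The intron alignments were gathered in a few blocks rather than spread out. Blocks with at least 20 alignments over all litters numbered 7, and 6 of them had alignments in litter 3. The fullest, chr10:67706245-67706704, starts 266 bases on the 5′ side of exon 3 and held 641, 238 and 20 alignments. Another on that side, chr10:67708911-67709202, starts 2932 bases away and held 290, 52 and 22. Both had more in litter 1 than in litter 2, the reverse of exon 3 beside them, and both kept alignments in litter 3 where exon 3 had 0. A block in the intron after exon 4, chr10:67606131-67606226, was nearly level at 15, 16 and 11 alignments. A block held by litter 1 alone, chr10:67698112-67698306, had 23, 0 and 0. None of the 7 is part of an exon in the annotation used, and they were named after their values were seen.

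Set against the whole genome, the region was 1 of many that differed in litter 3. Litter 3 stood apart from the others. Of 10913 windows of 1 kb with a mean of at least 10 CPM, 703 (6.44%) were over 4-fold lower in litter 3 than the mean of litters 1 and 2, and 602 (5.52%) were over 4-fold higher. Between litters 1 and 2, 100 windows (0.916%) were over 4-fold apart in either direction. In the Arid5b region 7 windows reached that mean, 7 of them were over 4-fold lower in litter 3, and 0 were over 4-fold apart between litters 1 and 2. Since the region was chosen on the first contrast, nothing is read from its count. The window just inside the mean limit had 14.4 CPM and the one just outside 8.89 CPM, and litter 3 divided by the mean of the others ran from 0 to 0.0158 in the 7 windows. In all, 37 windows of the region held any alignment, 17 of them in litter 3.

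Few windows around the gene held depth. Within 1 Mb on each side of the region, 14 windows of 1 kb had a mean of at least 1 CPM and 0 had a mean of at least 10 CPM, a limit lowered after the values were seen. At a mean of at least 1 CPM, 14.5% of 52367 windows over the genome were over 4-fold lower in litter 3 and 8.59% were over 4-fold higher. Of the 14 around the gene, 4 were over 4-fold lower and 1 over 4-fold higher, while another, from 67893001 to 67894000, had 0 CPM in litters 1 and 2 and 6.65 CPM in litter 3. Litter 3 divided by the mean of the others had a median of 0.985 over the 13 with a value. Of the region's own windows, 15 reached this limit and 15 were lower, a count fixed by the choice of the locus.

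Of 13 further family genes and Phf2, 8 could be placed in mm9 by the same exon matching, 5 by both scores and 3 only with every exon weighing the same, and the other 6, among them the close relative Arid5a, could not be placed and are given no value. Arid1a, a subunit of the BAF chromatin remodelling complex, was highest, at 85.1, 71.0 and 81.5 RPKM in litters 1, 2 and 3. Arid5b was the second of the 9 placed genes in litters 1 and 2, above Arid4a (18.7, 26.2 and 22.2 RPKM) and Jarid2 (17.9, 21.7 and 14.1), and the last in litter 3.

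Litter 3 divided by the mean of the other litters ran from 0.360 to 1.62 over the 8 other genes, with a median of 1.02, against 1.05 over the 10913 windows, and 0 of the 8 passed 4-fold, where 6.44% of those windows did so downwards and 5.52% upwards. It was lowest for Kdm5c, a histone demethylase gene (5.06, 3.98 and 1.63 RPKM), followed by Arid1b (14.3, 13.0 and 5.98 RPKM). It was highest for Phf2, the partner of the protein Arid5b, with 3.19, 4.85 and 6.53 RPKM. Litter 3 was the lowest library for 3 of the 8 genes and the highest for 3, counts that have no share over all windows beside them. Kdm5c, Phf2 and Arid4b (3.00, 2.53 and 4.07 RPKM) are the 3 placed by 1 score only, as is Arid5b-204 itself.

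**Figure D4:**
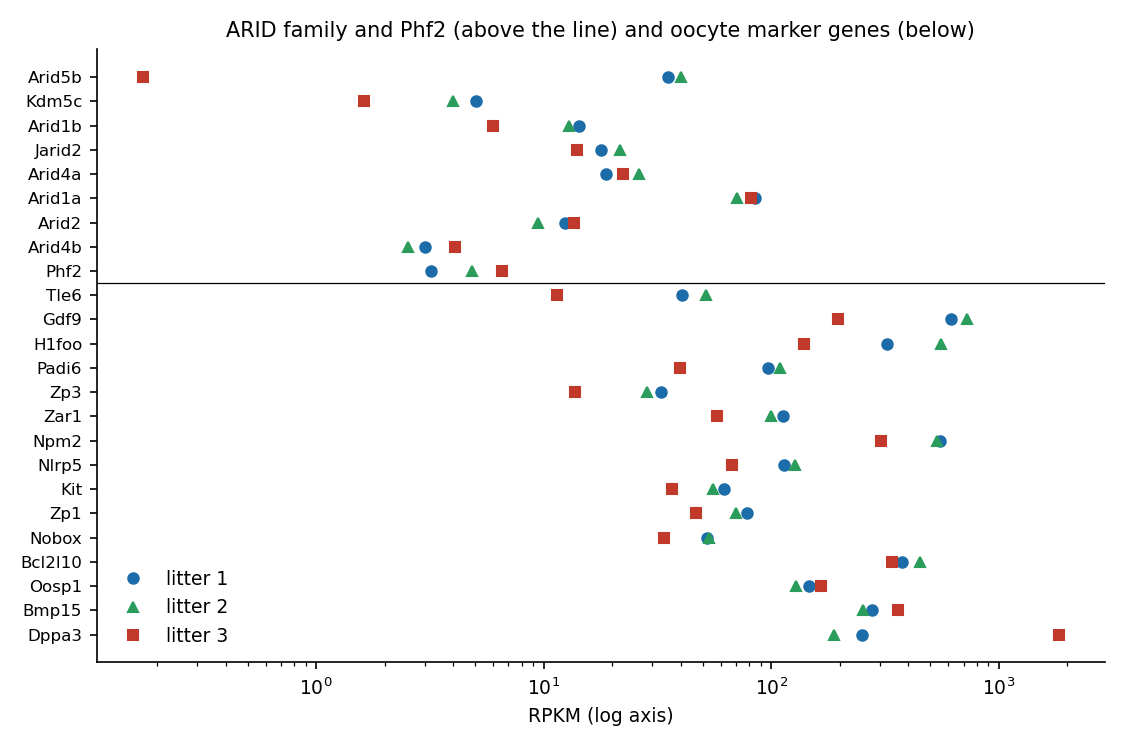
RPKM (x axis, log) of the 9 placed ARID family genes and Phf2 and of 15 placed oocyte marker genes, 1 point per litter, ordered by litter 3 divided by the mean of the other litters. Arid5b in litter 3, at 0.173 RPKM, is the lowest point of the plot, and Dppa3 in litter 3, at 1836 RPKM, the highest.

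The oocyte marker genes that could be placed had alignments in all litters. Of 20 listed, 15 could be placed, with 32.7 to 614 RPKM in litter 1, 28.4 to 722 in litter 2 and 11.4 to 1836 in litter 3, and their summed level was 5154, 5575 and 4807 CPM. Placing needs depth summed over the litters, so genes without depth cannot enter. It also needs more than 1 exon, so Mos, with 1 exon, could not be placed at any depth. Zp2, Figla, Ooep and Sohlh1 missed the limit against the next best place, Figla with a contrast per base of 5.24 against 4.99 and Ooep with 6.09 against 5.24. These 5 genes have no value, and lack of a place does not mean lack of depth. Litter 3 was the lowest library for 12 of the 15 and the highest for 3. The share of all windows lowest in litter 3 was not counted, so nothing is read from these counts. The median of litter 3 divided by the mean of the others was 0.557, against 1.05 over the 10913 windows. Past 4-fold were 1 of the 15 in each direction, near the 6.44% and 5.52% of all windows. Tle6, a gene of the subcortical maternal complex, was over 4-fold lower (40.7, 51.8 and 11.4 RPKM, ratio 0.247), and Dppa3, a maternal factor needed by the early embryo, was over 4-fold higher (208, 157 and 1529 CPM, ratio 8.37). Zp3, which codes for a zona pellucida protein, stood at 32.7, 28.4 and 13.7 RPKM, below Arid5b in litters 1 and 2 and above it in litter 3. None of the 20 cumulus and granulosa markers and none of the 7 stroma and blood markers with a coding model met both placing scores or the exon score alone, so their levels are not given, and whether other cells have a part in the Arid5b values was not tested.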

How the data were processed

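For every library the authors deposited a coverage signal track of raw depth: how many alignments overlap the bases of each stretch, without scaling. Bowtie was the aligner and mm9 the build, per the submitters' processing notes. Its version is not given in the sources used here. Every value in a track adds up to whole alignments of 72 bases, and 99.9% of isolated blocks in each library are exactly 72 bases long, so alignment starts were recovered from steps in depth, with 0 negative values. Alignments were assigned to an exon by their midpoint and given as CPM or RPKM. Placing and start recovery were tested on simulated data with even depth over exons, unchanged exon spacing and a shorter search. That test does not cover uneven depth or a change of build as in these tracks. A gene was placed where its best shift within 5 Mb had a contrast of at least 2 and 1.5 times that of the next, over 1 kb away. That rule, with every base weighing the same, also placed 3 genes (Fshr, A930033H14Rik and Pecam1) where the exon score did not, and these were left out. None of the 9 neighbouring genes gave a place used here. Listed genes with 1 exon (Mos, Foxl2 and Ado) have no exon spacing and could not be placed.

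The planned model was the best matching transcript, Arid5b-203. The exons of Arid5b-204, at the same place, were used in its stead after seeing that they hold more alignments, and Arid5b-203 became an alternative. The members and lists were chosen with earlier results of these data known. Genes named are Arid5b, the ARID family with Phf2, and genes of the lists that were highest, lowest or past 4-fold. Windows like Arid5b are the 5 nearest in centred log2(CPM + 0.5) over the 3 litters. The series holds 1 group, so no test between groups was run. Analysis used Python 3.11.15, numpy 2.4.6, scipy 1.17.1, pandas 2.3.3 and matplotlib 3.10.9. Other scalings, exon models, window sizes and limits were tried.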

Additional observations from a re-analysis of the deposited data

How the results depend on the processing

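The locus stayed far lower in litter 3 under every scaling and exon model tried. Litter 3 divided by the mean of the others, 0.00459, was 0.0188 with each start position counted once, 0.00872 over the exons of Arid5b-203, the planned model that Arid5b-204 replaced after the data were seen, and 0.109 over introns, an alternative added then, and leaving out a litter gave 0.00429 to 1.15, where the highest is litter 2 over litter 1. The last exon's share, 68.9% as a mean, was 75.0% with each start counted once. The windows lower in litter 3 numbered 15 of 15 at a mean of at least 1 CPM. Litter 3 alone put the exons of the model Arid5b-203 at a distance of 877942 bases by the score per base. It put those of Arid5b-204 at 873456 bases by that score and at 992075 bases with every exon weighing the same. All of these missed the placing limits. With all litters, Arid5b-204 also missed them per base (ratio to the next place 1.45) and by bases covered (1.39), and met them with every exon weighing the same. At more than 3 alignments, 2 exons in place of 5 counted in litter 3. The mean exonic level of 191 CPM was 311 with scaling outside the 100 highest windows, 280 with each start counted once, 64.3 without the last exon and 95.9 over Arid5b-203, and 133 to 285 on leaving out a litter. The SD of 165 CPM is wide because litter 3 lies far below the others. That these values lie within the SD therefore says little, and no stability is read from it. No paired analysis was possible because only 1 group of samples exists. Depth limits every value of litter 3, which rests on 42 exonic alignments.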

Other observations

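The windows whose levels over the 3 litters were most like those of Arid5b lay on other chromosomes. Out of 10758 windows compared, the nearest was on chromosome 5 (115553001 to 115554000), with 88.9, 74.7 and 0.437 CPM in litters 1, 2 and 3. Next came windows on chromosome 19 (16100001 to 16101000) with 26.9, 22.5 and 0.0624 CPM, and on chromosome 15 (99640001 to 99641000) with 23.5, 19.6 and 0 CPM. The others were on chromosome 4 (129438001 to 129439000), with 29.0, 23.6 and 0.219 CPM, and on chromosome 15 (5067001 to 5068000), with 19.5, 19.7 and 0.0624 CPM. In all 5, as in Arid5b, litters 1 and 2 were high and litter 3 was near 0, which is what the choice of nearest windows asks for. Likeness over 3 libraries says nothing of shared function.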
